A study of Mus musculus with 2 samples.

Results

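The genes described here are 10 interferon-gamma-induced GTPase genes of the mouse, out of 31053 genes in the tables: *Irgm1*, *Irgm2*, *Igtp*, *Iigp1*, *Tgtp2*, *Ifi47*, *Gbp2*, *Gbp3*, *Gbp4* and *Gbp7*. They were chosen by symbol as a family, after *Iigp1* was selected on its measured level in group 2 innate lymphoid cells (ILC2) of the old library. All values of the family in ILC2-like cells, and their ratio between the libraries, are therefore a description that supports nothing. The study counted RNA molecules in single kidney cells of MRL-*lpr* mice, a lupus-prone strain in which both groups carry the *lpr* mutation of *Fas*. One library came from pooled kidneys of old mice, the severely diseased group of the paper's methods. The other came from pooled kidneys of young mice, the control or mildly diseased group. A density gradient, a magnetic enrichment of innate lymphoid cells and a sort of live cells came first, so shares of a library are not frequencies in the kidney.

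With 1 library per age, no replicate checks a difference between them, and age, library and the pooled animals cannot be told apart. The young library held 15076 cell barcodes with 156787812 unique molecular identifiers (UMIs, counted RNA molecules), and the old library held 12622 barcodes with 126334256 UMIs. A barcode counted as a cell when it held 200 genes or more and its mitochondrial UMIs did not pass 20%. This gave 11429 young cells with a median of 7881 UMIs and 10232 old cells with a median of 6933 UMIs. Of the kept barcodes, 26 had the same sequence in both libraries. The paper's methods name female mice, yet cells with a transcript of a Y-linked gene and none of *Xist* made up 50.8% of young and 40.6% of old cells. Cells with *Xist* and no Y-linked transcript made up 14.6% and 29.1%, so the family's ratios are also given in each of these sets.

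Interferon-gamma is a cytokine of T and NK cells that acts through the receptor chains *Ifngr1* and *Ifngr2* and turns on a large set of defence genes, *Irf1* among them. The immunity-related GTPases (IRG) and the guanylate-binding proteins (GBP) are among the strongest of these targets. They gather on the membranes that surround intracellular parasites and bacteria, where the IRG effectors break the membrane and the GBPs recruit further defences. Within the IRG genes, *Irgm1*, *Irgm2* and *Igtp* encode regulators that sit on the cell's own membranes and hold the effectors in an inactive state.

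Each cell was given a class by its own marker transcripts, and a class is called "-like" because the markers are all that names it. This placed 85.6% of young and 86.1% of old cells in 1 of 16 classes. A level is the UMIs of a gene, or of the 10 genes summed, divided by all UMIs of the class and given in CPM, with an exact Poisson 95% interval. Ratios of old over young are given as log2 with an exact binomial 95% interval, and all intervals cover counting error only. Over all kept cells the 10 genes held 10979 UMIs in the young library, or 75.4 CPM, and 114402 UMIs in the old library, or 959.6 CPM.

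In the young library the family's UMIs were densest in endothelial-like cells, macrophage-like cells and T-like and NK or ILC1-like cells, and the tubule held little of it. Endothelial-like cells, the vessel lining, had a summed level of 816 CPM (771 to 864), above every other young class. Next came macrophage-like cells with 594 CPM, Treg-like cells with 559, NK or ILC1-like cells with 504, CD8 T-like cells with 492 and CD4 T-like cells with 427. Neighbours among these 5 had overlapping intervals, so their order is not set by these counts. The macrophage-like value was carried by few cells, since the top 10% of the 70 cells held 80.6% of the UMIs and the median cell had 34.8 CPM. Coreceptor-negative T-like cells, which have CD3 and neither *Cd4* nor *Cd8a* or *Cd8b1*, had 361 CPM and overlapped with CD4 T-like cells. Below a gap stood monocyte-like cells with 232 CPM. ILC2-like cells with 145, plasmacytoid dendritic-like cells with 138 and neutrophil-like cells with 122 CPM followed and overlapped with each other. B-like cells had 59.9 CPM and proximal tubule-like cells 38.4 (37.2 to 39.5). At the low end, erythroid-like cells had 20.4 CPM, and other-epithelium-like cells (loop, distal tubule and collecting duct) had 12.5 (4.05 to 29.1), from 5 UMIs.

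In the old library the epithelium was at the top by pooled UMIs. Other-epithelium-like cells had a summed level of 1406 CPM (1359 to 1454), proximal tubule-like cells 1232 (1223 to 1241) and Treg-like cells 999 (928 to 1075), with no overlap between these 3. By the median cell the order was another, with 944 CPM in Treg-like, 538 in NK or ILC1-like, 516 in CD8 T-like, 513 in proximal tubule-like and 235 in other-epithelium-like cells. The pooled level of the epithelium was thus carried by a part of its cells. Neutrophil-like cells had 704 CPM, ILC2-like cells 657, NK or ILC1-like cells 592, CD4 T-like cells 587 and CD8 T-like cells 571. These neighbours overlapped, so by pooled UMIs ILC2-like cells stood among other leukocyte classes. Their median cell had 412 CPM. In neutrophil-like cells the median cell had 381 CPM and the top 10% of cells held 56.0% of the UMIs. After a gap came macrophage-like cells with 489 CPM, coreceptor-negative T-like cells with 481 and monocyte-like cells with 454, which overlapped as neighbours. B-like cells had 314 CPM, plasmacytoid dendritic-like cells 271 and plasma-like cells 245 (223 to 269). Plasma-like cells were too few for a value in the young library, and endothelial-like and erythroid-like cells too few in the old one, with 17 and 7 cells.

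**Figure D1:**
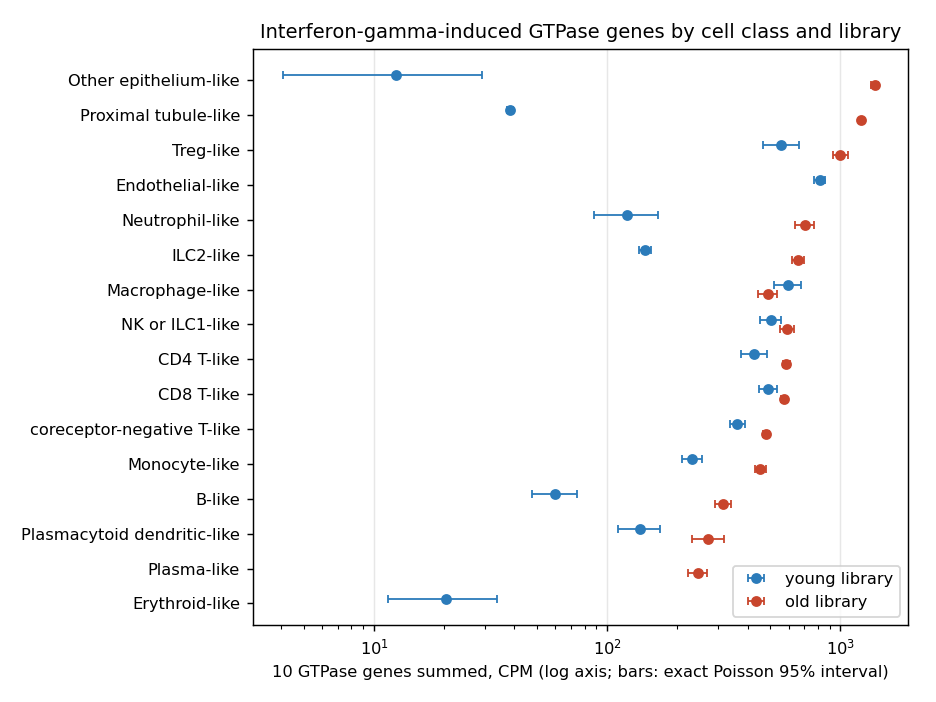
Summed level of the 10 GTPase genes in each cell class (CPM, log axis) in the young and the old library, with exact Poisson 95% intervals as bars. Proximal tubule-like cells went from 38.4 to 1232 CPM, while CD8 T-like cells stood at 492 and 571.

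Free RNA in the cell suspension adds UMIs to cells that do not make a transcript, so each level was set against a gauge. The gauge takes the level of 10 proximal tubule marker genes in a class, as a share of their level in the library, and gives the family the same share of its library level. In young ILC2-like cells the gauge was 4.03 CPM against a measured 145, and in old ILC2-like cells it was 31.6 against 657. All 10 genes had an interval above their own gauge in ILC2-like, coreceptor-negative T-like and monocyte-like cells of both libraries and in young endothelial-like cells. In B-like cells 5 of 10 did in the young library and 10 of 10 in the old one. In young erythroid-like cells, which served as a class expected to lack the family, 0 of 10 genes did. That class held only 15 family UMIs and had a higher gauge, 12.9 CPM, so this result is no check of the gauge. Some old levels could not be told from the gauge, among them *Iigp1* in CD8 T-like cells, with 8.48 CPM and a gauge of 7.47, in NK or ILC1-like cells, with 10.2 and 7.15, and in neutrophil-like cells, with 3.21 and 10.1.

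Between the libraries, the ratio of the summed level ran from far above 2-fold in the epithelium to near none in some leukocyte classes. Proximal tubule-like cells went from 38.4 to 1232 CPM, a log2 ratio of 5.005 (4.96 to 5.05). Other-epithelium-like cells went from 12.5 to 1406 CPM, 6.82 (5.59 to 8.44), where the wide interval comes from the 5 young UMIs. These epithelial ratios were far above those of any leukocyte class. Among leukocytes, neutrophil-like cells had 122 and 704 CPM, 2.53 (2.07 to 3.02), B-like cells 59.9 and 314, 2.39 (2.06 to 2.74), and ILC2-like cells 145 and 657, 2.18 (2.06 to 2.30). In B-like cells the median log2 ratio of all genes was -0.53, so the family's rise was larger still against the other genes, and leaving the most abundant genes out of the total shifted all B-like ratios by -0.11. Monocyte-like cells had 0.97 (0.81 to 1.13), plasmacytoid dendritic-like cells 0.97 (0.60 to 1.36) and Treg-like cells 0.84 (0.57 to 1.12). Smaller ratios were found in other lymphocytes: CD4 T-like cells had 0.46 (0.27 to 0.65), coreceptor-negative T-like cells 0.41 (0.30 to 0.53), NK or ILC1-like cells 0.23 (0.06 to 0.41) and CD8 T-like cells 0.22 (0.08 to 0.35). Macrophage-like cells went from 594 to 489 CPM, -0.28 (-0.52 to -0.04), but the mean of the cells' own CPM gave 0.05, so no direction is given for them.

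How many of the 10 genes lay at least 2-fold higher in the old library was counted among genes with at least 100 UMIs over both libraries, and each count is set beside the share of all such genes past the same fold. None of the genes so counted lay 2-fold lower in any class. In proximal tubule-like cells all 10 reached 100 UMIs and 10 were past 2-fold, against 2.98% of 12289 genes. Of these, *Igtp*, *Irgm1*, *Irgm2*, *Gbp3* and *Gbp7* reached 100 UMIs in the young library as well, while *Iigp1*, *Tgtp2*, *Gbp2* and *Gbp4* passed through the old library and so had to be higher there. *Ifi47* had 83 young UMIs. In other-epithelium-like cells 8 reached it and 8 were past 2-fold, against 6.01% of genes, though these 8 also passed through the old library alone, and nothing is read from that count. In B-like cells 2 of 2 were past 2-fold, *Igtp* and *Gbp4*, against 3.37%. Neutrophil-like cells gave 1 of 1, *Gbp2*, against 3.23%, and Treg-like cells 2 of 4, *Igtp* and *Gbp4*, against 4.08%. With 1 to 4 genes countable, and the named ones at under 30 young UMIs each, these say little about the family as a whole. In ILC2-like cells, whose values chose the family, 8 of 8 were past 2-fold beside 1.4% of genes.

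In the remaining classes the count was low. CD8 T-like cells had 1 of 7 genes past 2-fold, *Gbp2*, against 4.37% of all genes. CD4 T-like cells had 2 of 8, *Iigp1* and *Gbp7*, against 6.68%. Coreceptor-negative T-like cells had 2 of 8, *Iigp1* and *Gbp3*, against 8.53%. The old library holds most UMIs of these T-like classes, so the genes passed the filter largely through it, as did *Iigp1* in CD4 T-like cells with 3 young UMIs, and nothing rests on these counts. The other genes so counted lay within 2-fold in each of these T-like classes, which is a description only. Monocyte-like cells had 1 of 6, *Gbp2*, against 5.15%, NK or ILC1-like cells 0 of 4 against 0.855%, and macrophage-like cells 0 of 2 against 11.9%. In plasmacytoid dendritic-like cells 0 genes reached 100 UMIs, beside a background of 1.43%, so nothing could be counted there.

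The first role group holds the regulators, which keep IRG effectors inactive on the cell's own membranes. *Irgm1* (ENSMUSG00000046879, chr11:48861968-48871683 on the minus strand of GRCm38) is the regulator linked to autophagy and to the survival of activated T cells. In the young library it was highest in endothelial-like cells, at 87.2 CPM, and it had 26.2 CPM in proximal tubule-like cells. In old proximal tubule-like cells it had 299.6 CPM, a log2 ratio of 3.52 (3.46 to 3.57), the smallest ratio of the 10 genes in that class. *Irgm1* was thus the member that young tubule cells already held, and it made up 68.3% of their family UMIs against 24.3% in the old library. In CD8 T-like cells it had 33.7 and 42.9 CPM, and in NK or ILC1-like cells 22.8 and 22.6 CPM, which were not different within their intervals. Neutrophil-like cells had 17.5 and 96.2 CPM, 2.46 (1.26 to 3.96).

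*Igtp* (ENSMUSG00000078853, chr11:58199556-58207591, plus strand), also named IRGM3, is the regulator found on the endoplasmic reticulum and lipid droplets. Its ratio differed among T-like cells. In CD8 T-like cells it went from 71.4 to 48.1 CPM, -0.57 (-0.93 to -0.19), though -0.14 (-0.65 to 0.41) among cells with Y-linked UMIs only, and in Treg-like cells from 59.7 to 124 CPM, 1.05 (0.23 to 1.98). The difference between these classes was not tested. In B-like cells it went from 5.84 to 64.1 CPM, 3.46 (2.43 to 4.70), and in proximal tubule-like cells from 5.83 to 203 CPM, 5.12 (5.01 to 5.24). Old plasma-like cells had 97.7 CPM, and *Igtp* made up 39.8% of their family UMIs, the largest share it had in any old class. *Irgm2* (ENSMUSG00000069874, chr11:58199618-58222782, plus strand), the regulator on Golgi membranes, lies beside *Igtp* and the gene models overlap on the same strand. It was scarce in leukocytes, its highest levels there being 12.8 CPM among young classes and 32.1 CPM in old neutrophil-like cells. In proximal tubule-like cells it went from 2.43 to 75.9 CPM, 4.96 (4.79 to 5.14).

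The effectors are the IRG proteins that load onto the vacuole of an invader and break it. *Iigp1* (ENSMUSG00000054072, chr18:60376027-60392634, plus strand), the best studied of them, had a narrow pattern in the young library. Endothelial-like cells had 147 CPM (128 to 168) and macrophage-like cells 77.6, the latter from 29 UMIs in 4 cells. Every other young class had at most 6.55 CPM, and B-like, neutrophil-like and erythroid-like cells had 0 UMIs. In the old library other-epithelium-like cells had 485 CPM and proximal tubule-like cells 389, without overlap. Treg-like cells with 79.7, ILC2-like cells with 64.1, macrophage-like cells with 57.2 and B-like cells with 42.0 CPM came next, each overlapping its neighbour. ILC2-like cells thus shared their *Iigp1* level with Treg-like and macrophage-like cells. The T-like classes other than Treg-like cells stood lower, at 28.9 CPM in coreceptor-negative, 25.7 in CD4 and 8.48 in CD8 T-like cells.

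In several classes *Iigp1* rose from a young level near 0. In proximal tubule-like cells it went from 0.446 CPM, 50 UMIs in 6558 cells, to 389 CPM, 24335 UMIs in 3467 cells. This is a log2 ratio of 9.77 (9.37 to 10.20). With no UMI in a young class, the fold was set against a floor of 3 counts in that class. On that floor *Iigp1* was at least 64.8-fold higher in old other-epithelium-like cells and at least 19.2-fold higher in old B-like cells. As log2 these are 6.02 and 4.26, and the exact binomial lower limits were smaller, 5.72 and 3.93. Monocyte-like cells had 2 young UMIs and 25.03 CPM in the old library, 4.43 (2.53 to 7.51), and Treg-like cells 1 young UMI, 4.22 (1.69 to 9.55). Coreceptor-negative T-like cells went from 6.55 to 28.9 CPM, 2.14 (1.34 to 3.07), and CD4 T-like cells from 5.34 CPM, on 3 UMIs, to 25.7, 2.27 (0.70 to 4.56). In CD8 T-like cells, with 5.95 and 8.48 CPM, no difference was detectable at this depth (-0.68 to 2.005). CD8 T-like cells thus stood apart from the other T-like classes by their low *Iigp1* level in the old library.

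*Tgtp2* and *Ifi47* are the other effectors, and they behaved unlike each other. *Tgtp2* (ENSMUSG00000078921, chr11:49057194-49064206, minus strand) encodes IRGB6, an early arrival on parasite vacuoles. Its counts are uncertain, since 65.9% of the 90-base stretches at its transcript ends also occur in *Tgtp1* or *Gm12185*. It was rare in the young library, with at most 15.7 CPM, in endothelial-like cells. In the old library it had 25.8 CPM in other-epithelium-like cells, 23.2 in ILC2-like cells and 9.14 in proximal tubule-like cells, and at most 7.44 elsewhere. *Ifi47* (ENSMUSG00000078920, chr11:49076587-49096974, plus strand), also named IRGD, was high in T-like and NK or ILC1-like cells of both libraries, though not in them alone. Young CD8 T-like cells had 119 CPM, NK or ILC1-like cells 105 and CD4 T-like cells 90.7, and in the old library these classes had 95.4, 85.3 and 86.7 CPM. The log2 ratios were -0.32 (-0.60 to -0.03), -0.29 (-0.72 to 0.14) and -0.07 (-0.48 to 0.38). Among cells with Y-linked UMIs only, CD8 T-like cells had -0.22 (-0.59 to 0.17, which includes 0), and the CD4 T-like ratio turned to 0.21. Old monocyte-like cells had 87.9 CPM, level with these, and young endothelial-like cells 77.7. B-like cells stood lower, with 13.9 and 35.005 CPM. In proximal tubule-like cells, in contrast, it went from 0.740 to 53.0 CPM, 6.16 (5.85 to 6.49).

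The GBP genes encode larger GTPases that assemble into coats on pathogen membranes and bring in the machinery of cell-autonomous defence and inflammasome activation. *Gbp2* (ENSMUSG00000028270, chr3:142620602-142638008, plus strand) was high in myeloid classes, in young endothelial-like cells with 64.1 CPM and in the old epithelium. Young macrophage-like cells had 158 CPM and old ones 145, a difference within the interval of the ratio. Neutrophil-like cells went from 43.7 to 345 CPM, 2.98 (2.23 to 3.84), on 15 young UMIs. Old neutrophil-like cells had the highest *Gbp2* level of any class. Monocyte-like cells went from 34.2 to 122 CPM, 1.84 (1.44 to 2.26). Other-epithelium-like cells had 167 CPM in the old library. In the tubule it was nearly absent from the young library, with 0.357 CPM, and had 141 CPM in the old one, 8.62 (8.18 to 9.11). Among CD8 T-like cells it rose from 16.9 to 39.3 CPM, 1.22 (0.52 to 2.02), the only family gene past 2-fold there among those with 100 UMIs.

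*Gbp3* and *Gbp7* lie beside *Gbp2* on the same chromosome. *Gbp3* (ENSMUSG00000028268, chr3:142560026-142573209, plus strand) was highest in NK or ILC1-like cells, which had 180 CPM (151 to 213) when young and 257 (231 to 285) when old. Treg-like cells overlapped them in both, with 175 and 241 CPM. CD8 T-like cells had 106 and 153 CPM, 0.53 (0.24 to 0.83), and coreceptor-negative T-like cells 56.5 and 118, 1.07 (0.78 to 1.36). Old proximal tubule-like cells, with 16.4 CPM, were the old class with the lowest *Gbp3* level. *Gbp7* (ENSMUSG00000040253, chr3:142530342-142550149, plus strand), which acts in oxidative defence in phagocytes, had 144 CPM in young endothelial-like cells and 227 in old Treg-like cells. Macrophage-like cells had 77.6 and 79.8 CPM. In CD4 T-like cells it went from 46.2 to 95.9 CPM, 1.05 (0.49 to 1.68). Coreceptor-negative T-like cells had 65.0 and 69.5 CPM. Old B-like cells had 28.0 CPM against 0 UMIs in young ones, at least 12.8-fold higher on the floor of 3 counts. As log2 this is 3.68, and the exact binomial lower limit was 3.33.

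*Gbp4* (ENSMUSG00000079363, chr5:105115767-105139586, minus strand) lies apart from the other GBP members, in the GBP cluster that also holds *Gbp6*, *Gbp8* and *Gbp9*. Of the 90-base stretches at its transcript ends, 6.08% occur in other genes, *Gbp6* and *Gbp9* among them. Young endothelial-like cells had its highest level, 105 CPM (89.0 to 123), above CD8 T-like and CD4 T-like cells with 60.5 each. In the old library Treg-like cells with 129 CPM and ILC2-like cells with 118 overlapped at the top, and CD8 T-like cells had 78.3. Proximal tubule-like cells had only 5.43 CPM, and neutrophil-like cells 9.62. The young proximal tubule level was 0.250 CPM, so even this member had a log2 ratio of 4.44 (3.89 to 5.06) there. Monocyte-like cells had 4.63 and 10.9 CPM. In coreceptor-negative T-like cells it had 57.5 and 49.2 CPM, -0.22 (-0.53 to 0.09), which turned to 0.47 among cells with *Xist* only.

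In ILC2-like cells, 1293 young with a median of 5194 UMIs and 302 old with a median of 5514, all 10 genes had more CPM in the old library. *Iigp1*, on which the family was selected, went from 1.78 CPM, 13 UMIs in 4 cells, to 64.1 CPM, 105 UMIs in 48 cells, 5.17 (4.33 to 6.13). Among 7502 genes this was rank 2. The regulators *Irgm1*, *Igtp* and *Irgm2* went from 14.7 to 58.6, from 8.77 to 56.1 and from 2.47 to 9.15 CPM. Of the other effectors, *Tgtp2* went from 1.78 to 23.2 CPM and *Ifi47* from 18.4 to 50.05, 1.45 (1.03 to 1.85), the smallest ratio of the 10. Among cells with *Xist* only *Ifi47* had 2.82 and was not the smallest. Among cells with Y-linked UMIs only it had 0.73 (0.14 to 1.30), under 2-fold. *Gbp2*, *Gbp3*, *Gbp4* and *Gbp7* went from 16.2 to 82.4, 12.3 to 59.8, 30.8 to 118 and 37.9 to 135 CPM. The IRG sum went from 47.8 to 261 CPM, 2.45 (2.24 to 2.66), and the GBP sum from 97.2 to 395, 2.02 (1.87 to 2.18). Genes that mark proximal tubule cells, a trace of free RNA, were fewer in old ILC2-like cells: the 10 markers summed to 3141 CPM in young and 1161 in old cells, all 10 with UMIs, most of them *Kap* with 2252 and 779. *Cd3d*, *Cd3e* and *Cd3g* were at 0 by the gate.

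**Figure D2:**
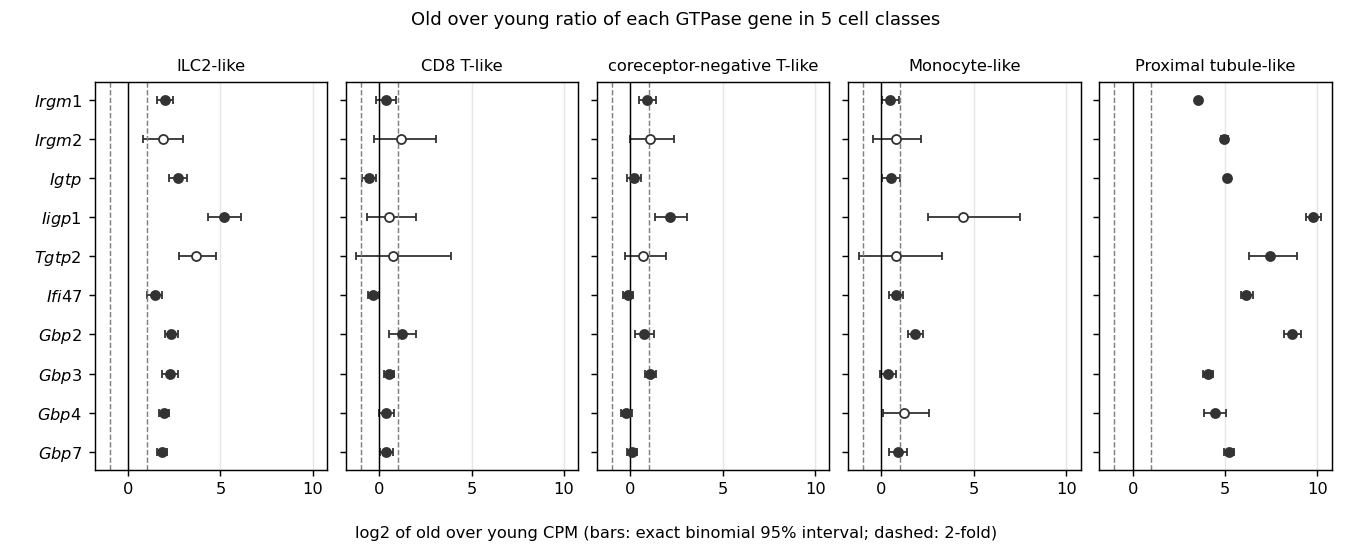
Log2 ratio of old over young CPM for each GTPase gene in 5 cell classes, with exact binomial 95% intervals. Dashed lines mark 2-fold and open points have under 100 UMIs over both libraries, and *Ifi47* lies at -0.32 in CD8 T-like and 6.16 in proximal tubule-like cells.

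Counted by cell, the family reached more ILC2-like cells in the old library. After every cell was thinned to 1000 UMIs, which left out 5 cells in each library, 12.2% of young (10.5 to 14.1, Clopper-Pearson) and 40.1% of old ILC2-like cells (34.4 to 45.9) held a UMI of any of the 10 genes. Without thinning the shares were 48.7% and 84.8%. Young erythroid-like cells, the background class with a median of 5917 UMIs, had 3.49% thinned, with 5 cells left out, and 8.79% unthinned. For *Iigp1* alone, thinned young ILC2-like cells gave 0 of 1288, which at that depth allows a share with a UMI of up to 0.233%, and old ones gave 6.06% (3.63 to 9.41). Unthinned, the *Iigp1* shares were 0.309% and 15.9%. At full depth, 15.2% of the old cells held no family UMI, and the top 10% of cells held 42.7% of the UMIs.

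In the old tubule the family was spread unevenly from cell to cell. Of 3467 old proximal tubule-like cells, 11.7% held none of it, the median cell had 513 CPM and the highest had 19608. The top 10% of cells held 55.7% of the family's UMIs. Thinned to 1000 UMIs, 3.64% of 6294 young cells (3.19 to 4.13) and 46.6% of 3410 old cells (44.9 to 48.3) held a UMI of the family, with 264 and 57 cells left out. The unthinned shares were 36.8% and 88.3%, at medians of 14075 and 15088 UMIs. For *Iigp1* the thinned shares were 0.0794% and 20.7%.

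The same old tubule cells tended to hold several members at once. Of the 705 thinned cells with an *Iigp1* UMI, 75.3% (72.0 to 78.5) also held another member, against 32.7% (30.9 to 34.5) of the 2705 cells without one. For the regulators, *Igtp* was in 35.6% of cells with *Iigp1* and in 10.2% without, and *Irgm1* in 43.1% and 16.7%. For *Gbp2* the shares were 24.3% and 6.62%, and for *Ifi47* 14.5% and 2.14%. Members thus gathered in the same tubule cells at equal depth. Old other-epithelium-like cells had 69.6% (47.1 to 86.8) of 23 cells against 22.6% (14.6 to 32.4), and old coreceptor-negative T-like cells 61.5% (40.6 to 79.8) of 26 against 33.8% (31.5 to 36.1). In young endothelial-like cells, with 61.1% (43.5 to 76.9) of 36 against 40.4% (33.9 to 47.1), the intervals overlapped. In old CD4 T-like cells, with 45.5% (28.1 to 63.6) of 33 cells and 42.2%, the thinned shares overlapped. At full depth 35.7% of 112 CD4 T-like cells with *Iigp1* held *Irgm1*, against 18.9% of 967 without, at medians of 5628 and 5162 UMIs. For *Gbp3* these shares were 53.6% and 51.4%. Thinned, the *Irgm1* shares were 3.03% and 4.61%, the other way, so nothing is read from the full-depth values.

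Markers of other cells were read in the tubule classes beside these values. The gate asked for cells with no *Ptprc*, the pan-leukocyte gene, so its level was 0 by construction in both libraries. The 6 T cell markers summed to 9.24 CPM in young and 30.9 in old proximal tubule-like cells, led by *Trac*. The 6 macrophage markers summed to 9.50 and 6.60 CPM and the 7 endothelial markers to 23.9 and 2.57, with *Cdh5* at 0 in the old library. These lists were low beside the family's 1232 CPM, and their part in it was not tested. The 10 proximal tubule markers themselves summed to 70834 and 58469 CPM.

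The make-up of the family's UMIs differed among the classes. GBP genes held 67.0% of the family's UMIs in young ILC2-like cells (64.1 to 69.9) and 60.2% in old ones (57.2 to 63.2). In NK or ILC1-like cells they held 68.1% and 74.5%, where *Gbp3* alone made up 43.3% in the old library. In CD8 T-like cells the GBP share was 52.0% and 63.8%, a shift with no overlap of intervals, while coreceptor-negative T-like cells had 55.2% and 56.4%. GBP genes thus held most of the family's UMIs in old T-like, NK or ILC1-like and ILC2-like cells. So they did in old neutrophil-like cells, with 58.8% (54.0 to 63.4). Old macrophage-like cells had 54.5% (49.8 to 59.2) and old monocyte-like cells 52.5% (49.9 to 55.2). Plasmacytoid dendritic-like cells had 16.1% and 33.5%, B-like cells 41.5% and 38.8% and old plasma-like cells 34.7%. The share was low in the tubule too: GBP genes held 6.99% and 16.4% in proximal tubule-like cells, and 19.9% in old other-epithelium-like cells. There *Iigp1* made up 31.6% and 34.5% of the old family UMIs. Young endothelial-like cells were balanced, with 48.7% GBP, and *Iigp1* at 18.0%. In old neutrophil-like cells *Gbp2* made up 49.0% and *Iigp1* 0.456%.

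**Figure D3:**
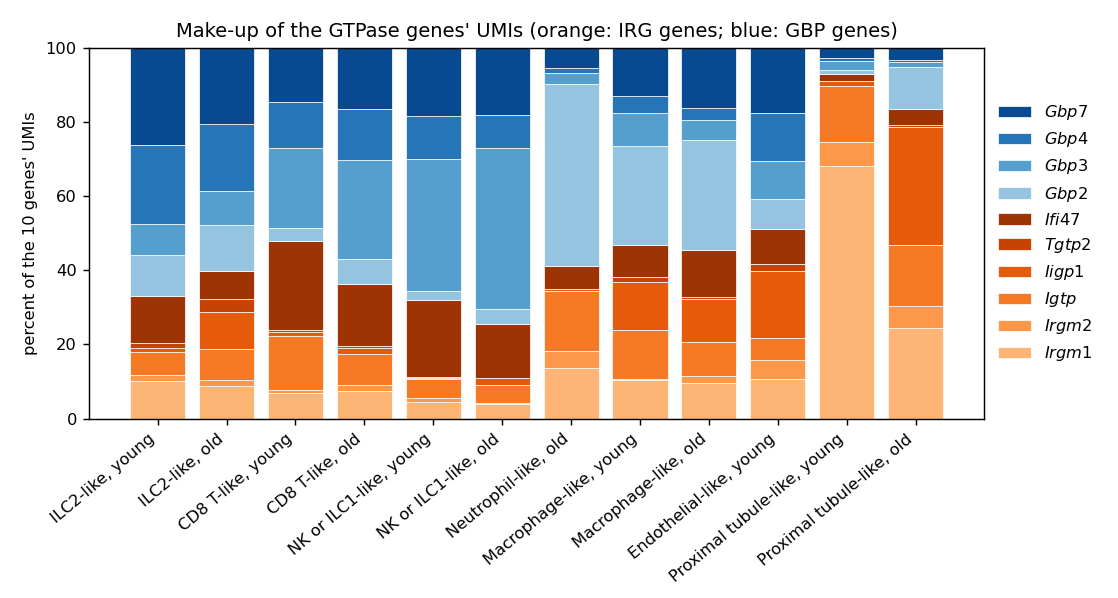
Share of each GTPase gene in the family's UMIs (percent, stacked to 100) in 12 pairs of class and library; IRG genes are orange and GBP genes blue. The blue part is 60.2% in old ILC2-like cells and 16.4% in old proximal tubule-like cells.

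Split by sex-linked transcripts, the family level was higher in the old library in both sets in the 5 classes with enough cells of each. In ILC2-like cells the sum went from 131 to 944 CPM, 2.85 (2.62 to 3.08), among cells with *Xist* only (304 young and 76 old). Among cells with Y-linked transcripts only (672 and 170) it went from 150 to 538 CPM, 1.85 (1.67 to 2.02). The young levels were close and the old ones apart. Proximal tubule-like cells had 38.9 and 1572 CPM with *Xist* only, 5.34, and 36.1 and 1119 with Y-linked only, 4.95. B-like cells had log2 ratios of 2.98 (2.37 to 3.67) and 1.72 (1.27 to 2.21), and monocyte-like cells 1.71 (1.25 to 2.21) and 0.94 (0.73 to 1.15). In these 4 classes the ratio was higher among cells with *Xist* only, a difference that was not tested over animals. Coreceptor-negative T-like cells had 0.45 and 0.39, with overlapping intervals. With Y-linked transcripts only, CD8 T-like cells had 0.33, CD4 T-like cells 0.73, NK or ILC1-like cells 0.18 (-0.06 to 0.42, which includes 0), plasmacytoid dendritic-like cells 0.94 and neutrophil-like cells 3.28. For *Iigp1* in ILC2-like cells the ratios were 6.83 (4.90 to 9.91), on 2 young UMIs, and 4.30 (3.17 to 5.61).

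Several classes also differed in their mix of cells between the libraries, which bears on how the family's ratios are read. Coreceptor-negative T-like cells of the young library held *Trdc*, a gamma-delta T cell gene, at 324 CPM, and *Gata3* at 356. In the old library these had 77.3 and 70.9 CPM, while *Eomes* went from 30.7 to 498 and *Myb* from 10.6 to 406. NK or ILC1-like cells of the old library held the basophil gene *Mcpt8* at 329 CPM, against 0 UMIs in the young library, and young Treg-like cells held it at 414 against 0 in old ones. In CD8 T-like cells *Trdc* went from 156 to 13.6 CPM and *Eomes* from 51.6 to 207. In CD4 T-like cells *Eomes* went from 3.56 to 145 CPM, and in B-like cells *Myb* from 38.7 to 4.31. The part of these mixes in the family's ratios was not tested.

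The cytokine, its receptor and a few genes of its pathway were read beside the family. *Ifng* itself was a transcript of T-like and NK or ILC1-like cells. In CD8 T-like cells it went from 320.3 to 554 CPM, in CD4 T-like cells from 146 to 463 and in NK or ILC1-like cells from 260.0 to 328. Coreceptor-negative T-like cells had 191 and 197 CPM and Treg-like cells 68.3 and 75.6. The classes with the most *Ifng* and those with the largest family ratios were not the same. Any link of *Ifng* in a class with family levels there or in other classes was not tested. In ILC2-like cells *Ifng* had 7.12 and 6.71 CPM, *Ifngr1* 104 and 146, and *Jak1* 377 and 368. *Irf1* went from 84.4 to 228 CPM there, 1.43 (1.24 to 1.62), and *Irf9* from 12.2 to 38.4, 1.66 (1.17 to 2.14). Both were past 2-fold, beside 1.4% of all genes in that class and a median log2 ratio of -0.04. These are single genes and not a tally of the pathway. Proximal tubule-like cells had *Ifngr1* at 20.6 and 22.6 CPM, *Ifngr2* at 12.4 and 18.4, 0.57 (0.46 to 0.69), and *Ptpn2*, a brake on the pathway, at 29.2 and 30.8. *Irf1* went from 2.51 to 88.7, 5.14 (4.97 to 5.32).

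Other genes of the GTPase families, a list of 17, were read in the same classes. In the tubule the IRG genes *F830016B08Rik* and *Gm4841* had 1 and 2 young UMIs and reached 32.6 and 17.0 CPM, 11.84 (9.36 to 17.14) and 9.90 (8.04 to 12.94). They and 8 other list genes passed the limit of 100 UMIs there through the old library and so had to be higher, and no count or median is read from them. The list gene with enough young UMIs was *Irgq*, an IRG-like gene without a working GTPase site, with 12.5 and 12.9 CPM, 0.04 (-0.08 to 0.17). ILC2-like cells had log2 ratios of 2.33 for *9930111J21Rik2*, 2.10 for *Gm4070*, 1.30 for *Gbp8* and -0.44 (-1.31 to 0.33) for *Irgq*. B-like, monocyte-like and neutrophil-like cells had only *9930111J21Rik2* to count, with -0.42, -0.35 and -0.01. The B-like value is near the median of all genes there, -0.53. Of the 90-base stretches at the transcript ends of *9930111J21Rik2* and *Gm4070*, 59.4% and 82.5% occur in other genes, so their counts are uncertain.

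Interferon-gamma targets outside the GTPases, 24 genes of antigen presentation and chemokines, gave a comparison with the wider response. In ILC2-like cells 14 of 19 countable genes were past 2-fold, beside 1.4% of all genes, with a median of 1.45, in the contrast that also chose the family. The class II genes led, with *Cd74* going from 42.5 to 687 CPM, 4.02 (3.83 to 4.203), and *H2-Eb1* at 4.196, while *Psme1* had 0.53. Proximal tubule-like cells had 20 of 20 past 2-fold, beside 2.98% of all genes, of which 17 reached 100 UMIs in the young library as well, led by *Psmb8* with 7.04 and *Cd74*, which went from 21.5 to 2354 CPM, 6.77 (6.71 to 6.83). Class II genes did not follow the family in every class. In monocyte-like cells *Gbp2* was higher in the old library, but *H2-Eb1* went from 1980.3 to 432 CPM, -2.20 (-2.29 to -2.10), and 5 of 21 targets were past 2-fold lower, beside 2.70% of all genes, and 5 higher, beside 5.15%. No gate was set for dendritic cells other than plasmacytoid ones, and a change in the mix of monocyte-like cells was not tested. In CD4 T-like, Treg-like and coreceptor-negative T-like cells 4 class II genes were past 2-fold lower, beside 1.77%, 1.74% and 5.69% of all genes. Among them was *Cd74* with -1.50, -1.48 and -2.79. In the same classes 2 of 20, 1 of 17 and 2 of 20 targets were past 2-fold higher, beside 6.68%, 4.08% and 8.53%. A type I interferon list of 21 genes also holds the receptor chains *Ifnar1* and *Ifnar2*, so its counts are not of induced genes alone. It had 5 countable genes in ILC2-like cells, with a median of 0.72 and 1 of 5 past 2-fold, *Isg15* at 1.83. In the tubule 13 of 16 were past 2-fold, beside 2.98% of all genes, with a median of 3.46 and a range from *Ifi44* at -0.63 to *Ifit1* at 5.71. Only 5 of these 16 had 100 young UMIs, so nothing is read from the count. In neutrophil-like cells 4 of 5 were past 2-fold, beside 3.23%, with *Rsad2* at 2.28. The old library holds more UMIs of that class, 623808 against 343637, and nothing is read from this count over 5 genes. In CD8 T-like cells 6 of 20 targets were past 2-fold, beside 4.37% of all genes, with a median of 0.38. Of these 6, 5 had 10 or fewer young UMIs, among them the class II genes.

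Across 25 pairs of class and library with at least 50 cells, the 10 members did not follow 1 common pattern. Pearson's r of log2(CPM + 1) between members ran from 0.0896 for *Irgm1* with *Gbp4* to 0.883 for *Gbp3* with *Gbp7*. *Iigp1* and *Tgtp2* had 0.869, and the regulators *Igtp* and *Irgm2* 0.842. So *Gbp3* and *Gbp7* went together over the classes, as did *Igtp* and *Irgm2*, while *Irgm1* and *Gbp4* did not. Some IRG and GBP pairs were about as alike, with 0.846 for *Ifi47* and *Gbp3* and 0.841 for *Igtp* and *Gbp2*. Among 11802 genes, the 5 outside all lists whose levels were most like the family sum were *Nmi* with an r of 0.812, *Parp9* with 0.782, *Parp14* with 0.765, *Fbxo6* with 0.740 and *Tapbpl* with 0.734. The points share 2 libraries and their free RNA, so these values are descriptions only.

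In the genome the members sit in clusters, and 8 of the 10 had an entry in the RefSeq promoter table (GRCm38.p6), *Iigp1* and *Gbp4* being without one. The 250 bases before each start site were searched on both strands for GAAA, 2 bases of any kind and GAAA again, the core of an interferon-stimulated response element. The other motif was TTC, 3 bases of any kind and GAA, which reads alike on both strands. The 8 genes have 9 promoters, since *Gbp3* has a second start site. The first motif was in 7 of 9, against 2.98% of 32851 promoters, and the second in 4 of 9, against 7.02%. Both were in *Igtp*, *Irgm2*, *Tgtp2* and *Gbp7*, against 0.332% of promoters, while *Ifi47* held neither. The *Igtp* and *Irgm2* sequences are nearly alike around the motifs, so these promoters are not independent in the counts. The 6 promoters below are shown for how the motifs are placed in them. Capitals mark the motif matches and each runs 5′ to 3′ on the gene's strand. They are *Igtp* (chr11:58199306-58199555, plus), *Irgm2* (chr11:58214727-58214976, plus), *Tgtp2* (chr11:49064213-49064462, minus), *Gbp7* (chr3:142530086-142530335, plus), *Irgm1* (chr11:48871421-48871670, minus) and *Gbp2* (chr3:142620413-142620662, plus).
Igtp: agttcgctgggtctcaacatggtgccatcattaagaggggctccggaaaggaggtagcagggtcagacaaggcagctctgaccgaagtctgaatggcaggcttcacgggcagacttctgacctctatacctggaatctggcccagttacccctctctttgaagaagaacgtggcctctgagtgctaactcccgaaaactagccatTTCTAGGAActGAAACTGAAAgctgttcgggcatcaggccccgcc
Irgm2: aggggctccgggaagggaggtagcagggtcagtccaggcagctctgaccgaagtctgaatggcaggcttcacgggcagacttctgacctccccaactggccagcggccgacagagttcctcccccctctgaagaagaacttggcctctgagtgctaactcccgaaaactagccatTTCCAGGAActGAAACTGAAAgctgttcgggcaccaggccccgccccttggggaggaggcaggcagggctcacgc
Tgtp2: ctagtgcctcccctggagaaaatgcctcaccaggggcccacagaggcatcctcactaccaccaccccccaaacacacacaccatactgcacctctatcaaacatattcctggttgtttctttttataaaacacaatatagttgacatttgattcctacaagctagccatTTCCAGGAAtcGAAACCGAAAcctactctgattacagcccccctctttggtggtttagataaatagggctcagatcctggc
Gbp7: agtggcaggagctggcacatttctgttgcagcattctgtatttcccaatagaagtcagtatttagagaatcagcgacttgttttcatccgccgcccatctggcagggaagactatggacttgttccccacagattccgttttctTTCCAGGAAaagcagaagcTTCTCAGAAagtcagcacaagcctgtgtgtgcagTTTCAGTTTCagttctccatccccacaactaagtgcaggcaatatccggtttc
Irgm1: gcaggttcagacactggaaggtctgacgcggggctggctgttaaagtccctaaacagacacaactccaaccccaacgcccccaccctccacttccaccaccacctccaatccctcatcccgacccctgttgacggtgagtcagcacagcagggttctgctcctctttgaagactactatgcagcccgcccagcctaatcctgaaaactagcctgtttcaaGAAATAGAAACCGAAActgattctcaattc
Gbp2: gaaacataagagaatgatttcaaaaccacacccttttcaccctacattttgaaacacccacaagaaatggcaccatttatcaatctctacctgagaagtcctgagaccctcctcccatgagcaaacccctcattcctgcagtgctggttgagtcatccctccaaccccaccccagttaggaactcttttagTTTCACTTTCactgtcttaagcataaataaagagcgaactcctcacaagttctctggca
In *Igtp*, *Irgm2* and *Tgtp2* the TTC match is followed after 2 bases by the response element core, starting 45 and 34, 75 and 64, and 81 and 70 bases before the start. In *Gbp7* the matches lie apart, at 106, 87 and 53 bases. *Irgm1* holds overlapping response element cores at 30 and 24 bases, and *Gbp2* 1 match at 59. A match is a run of letters and not a measured binding site.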

How the data were processed

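The deposited tables give counts of UMIs per gene and barcode, which the authors made with Cell Ranger 3.1.0 on mm10. A cell was a barcode with 200 genes or more whose mitochondrial UMIs did not pass 20%, and cells were classed by marker genes present in their own counts. Cells that met more than 1 gate stayed without a class. Scrublet doublets, 332 (2.9%) young and 270 (2.64%) old, were kept. The 10 members and the other gene lists are named genes, matched by symbol, and were chosen with earlier results of these data known. Levels are UMIs over all UMIs of a class, in CPM. Intervals are exact Poisson, Clopper-Pearson and exact binomial. Cells were thinned to 1000 UMIs with seed 7. The code was tested on simulated data. Alternatives tried were stricter filters (10% mitochondrial, 500 genes), no doublets, 1 more marker, the most abundant genes left out of the total, mean per-cell CPM, the median over members, the most abundant member left out, other thinning depths, fold limits and UMI limits, and the sets split by sex-linked UMIs. Software: Scanpy 1.11.5, pandas 2.3.3, Matplotlib 3.10.9, SciPy 1.17.1, NumPy 2.4.6, Python 3.11.15.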

Additional observations from a re-analysis of the deposited data

Results flagged for a closer look

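In macrophage-like cells the family sum was lower in the old library, with a log2 ratio of -0.28, while in proximal tubule-like cells it was higher, with 5.005. The 2 classes had opposite signs, the macrophage-like value turned to 0.048 as a mean over cells, and the difference between the classes was not tested.

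Barcodes outside the classes also held the family. Kept cells in no class were at 109 CPM when young (1634 barcodes) and 816 CPM when old (1322 barcodes). These counts leave out 10 young and 99 old T-like cells that fit none of the T-like classes. Barcodes removed by the filter were at 21.6 CPM when young (3647) and 501 CPM when old (2390). What these barcodes are was not tested, and none of them enters a class level.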

How the results depend on the processing

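No paired analysis was possible because each age has 1 library and no animal is known to be in both. The family sums in each class and the member ratios in ILC2-like cells were put through the alternatives. No direction among these turned, except for the macrophage-like sum. Members in other classes were split only by sex-linked UMIs, where some small ratios turned. Among these, with Y-linked UMIs only, *Igtp* in CD4 T-like cells went from -0.17 to 0.76 and *Gbp4* in neutrophil-like cells from 0.72 to -0.47. With *Xist* only, in coreceptor-negative T-like cells, *Igtp* went from 0.20 to -0.32, *Gbp4* from -0.22 to 0.47 and *Gbp7* from 0.10 to -0.14. Other members also left their interval, such as *Gbp2* in monocyte-like cells with 3.30 and *Gbp3* in coreceptor-negative T-like cells with 1.83 (*Xist* only).

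Among cells with *Xist* only, the log2 ratio of the family sum was 2.85 in ILC2-like, 2.98 in B-like, 1.71 in monocyte-like and 5.34 in proximal tubule-like cells. In ILC2-like cells single genes had 6.83 (*Iigp1*), 3.68 (*Igtp*), 2.82 (*Ifi47*), 3.12 (*Gbp2*), 2.77 (*Gbp3*) and 2.53 (*Gbp4*). Among cells with Y-linked UMIs only, the sum had 1.85 in ILC2-like, 0.73 in CD4 T-like, 1.72 in B-like, 3.28 in neutrophil-like and 4.95 in proximal tubule-like cells, and single genes in ILC2-like cells had 4.30 (*Iigp1*), 0.73 (*Ifi47*), 1.89 (*Gbp2*) and 1.53 (*Gbp4*). The ILC2-like and tubule ratios were thus larger in the *Xist* set, and the cause was not tested.

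As a mean of the cells' own CPM, coreceptor-negative T-like cells had 0.14 and macrophage-like cells 0.0480, which turns the sign of the latter. As a median over members, CD8 T-like cells had 0.44, coreceptor-negative T-like cells 0.74, monocyte-like cells 0.78 and proximal tubule-like cells 5.16. Without the most abundant member, coreceptor-negative T-like cells had 0.25, NK or ILC1-like cells 0.0492, monocyte-like cells 0.75, plasmacytoid dendritic-like cells 1.502 and proximal tubule-like cells 4.47. The small rise in NK or ILC1-like cells thus rested on *Gbp3*.

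The share of ILC2-like cells with *Iigp1* depended on depth. It was 0.319% of young cells at 2000 UMIs and 0.309% without thinning, and 2.98% of old cells at 500 UMIs and 15.9% without thinning.

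The share of all genes past the fold limit, the background of the member counts, moved with the limit. At 1.5-fold it was 4.999% in ILC2-like, 12.2% in CD8 T-like, 17.5% in CD4 T-like, 13.1% in Treg-like, 17.0% in coreceptor-negative T-like, 4.15% in NK or ILC1-like, 5.52% in B-like, 26.6% in macrophage-like, 12.4% in monocyte-like, 7.97% in neutrophil-like, 4.21% in plasmacytoid dendritic-like, 5.70% in proximal tubule-like and 14.6% in other-epithelium-like cells. With at least 300 UMIs it was 0.923% in ILC2-like, 2.27% in CD8 T-like, 4.21% in CD4 T-like and 0.481% in NK or ILC1-like cells. With at least 50 UMIs it was 6.83% in CD8 T-like and 1.40% in NK or ILC1-like cells. The member counts moved too: at 1.5-fold 4 of 8 passed in CD4 T-like and in coreceptor-negative T-like cells. With at least 50 UMIs 7 of 7 were past 2-fold in B-like cells, beside 3.60% of all genes. In neutrophil-like cells 3 of 3 were, beside 3.06%. These members reached 50 UMIs through the old library, with 22 young UMIs or fewer each, so nothing is read from those counts. With at least 300 UMIs no member was countable in Treg-like cells.

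The split by sex-linked UMIs gave no value where a library had under 20 such cells, which was so for *Xist* only in CD8 T-like, CD4 T-like, NK or ILC1-like, neutrophil-like and plasmacytoid dendritic-like cells, and for both sets in Treg-like, macrophage-like and other-epithelium-like cells. The median over members gave none in CD4 T-like, B-like, neutrophil-like, plasmacytoid dendritic-like and other-epithelium-like cells, where a member had 0 UMIs in a library, and the 10% mitochondrial filter and 1 more marker gave none in other-epithelium-like cells. Elsewhere stricter filters, removal of doublets, 1 more marker and a total without the most abundant genes left every value in its interval.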
